A study of Mus musculus with 15 samples.

Results

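Mitochondrial ribosomal proteins are the protein components of the ribosome that works inside mitochondria. The members were the genes whose symbols start with Mrpl (large subunit, 48 genes) or Mrps (small subunit, 29 genes) followed by a digit, 77 of the 19938 genes measured on the array. Each gene was represented by the probe set that carried its symbol alone and, where a gene had more than 1, by the brightest over all 15 arrays. No gene was left out for low signal, so every count below is over all 77 members.

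The mitochondrial ribosome translates the few messenger RNAs encoded by mitochondrial DNA, all of which specify hydrophobic subunits of the oxidative phosphorylation complexes. Its proteins are encoded in the nucleus, made in the cytosol and imported, and they assemble on ribosomal RNAs transcribed from mitochondrial DNA. The large subunit forms the peptide bond and the small subunit reads the codon. Many of the proteins descend from the bacterial ribosome, and others exist only in mitochondrial ribosomes.

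The study measured liver RNA from male mice given di(2-ethylhexyl) phthalate (DEHP), a plasticiser whose monoester metabolite activates the nuclear receptor PPARα, which switches on genes of fatty acid oxidation in mitochondria and peroxisomes. Wild-type mice were 129S1/SvlmJ and received corn oil alone (n = 4) or DEHP at 1150 mg/kg/day in corn oil (n = 4), by gavage for 4 days. PPARα-null mice (129S4/SvJae-Pparatm1Gonz/J) received corn oil alone (n = 4) or the same dose of DEHP for the same time (n = 3). All animals were 7.5 months old, give or take 2.5 weeks. The nulls lack the receptor in every tissue and come from another 129 substrain than the wild-type mice, so in every comparison between genotypes the receptor and the substrain cannot be told apart. Each array held the liver RNA of 1 animal, and animals are named by the numbers of their labels (55, KO_ctr_115, KO_DEHP 1150_121).

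Values are log2 of the deposited array intensity, and array medians ranged from 44.4 to 47.5 on the linear scale. Ppara ran from 9.64 to 9.88 in the wild-type controls and from 8.99 to 9.24 in the null controls, a log2 difference of -0.69 ± 0.12 (SE; limma adjusted p = 0.00645). The transcript was therefore lower in the nulls without being undetected, and the position of its probes relative to the deleted part was not examined. Ehhadh, a peroxisomal β-oxidation enzyme and known PPARα target, rose 7.58-fold with DEHP in wild-type liver (limma adjusted p = 6.54e-08) and differed by 0.32 ± 0.17 (log2, SE; adjusted p = 0.463) in the nulls. Hepatocyte markers were bright on every array, with 6 of 6 measured and a summed intensity of 65659 to 71358. Markers of liver sinusoidal endothelium (8 of 8 measured, none at 0) summed to 3002 to 3402 in wild-type controls, 2681 to 2957 in wild-type mice on DEHP, 3033 to 3360 in null controls and 3357 to 3652 in nulls on DEHP. Of these 8 markers 2 fell with DEHP in wild-type mice and 5 were higher in nulls than in wild-type mice under DEHP (limma), and their part in the results below was not tested. Kupffer cell and macrophage markers (8 of 9 measured, none at 0) summed to 1776 to 2064 in wild-type controls, 1581 to 2432 in wild-type mice on DEHP, 1992 to 2622 in null controls and 2250 to 2659 in nulls on DEHP. All 8 lay above 0 in nulls against wild-type mice on either treatment, with median log2 differences of 0.25 on corn oil, where none passed, and 0.39 under DEHP, where 1 passed (limma); their part was not tested. Neutrophil markers (6 of 6 measured) summed to 140 to 165 in wild-type controls, 208 to 251 in wild-type mice on DEHP, 143 to 243 in null controls and 177 to 234 in nulls on DEHP. The higher sum in treated wild-type mice was that of S100a8, whose mean intensity was 32.8 in controls and 111 on DEHP, while 4 of the 6 markers lay below 0 and their median log2 difference was -0.07. Their part was not tested. Of the red cell markers 1 of 5 was measured, Alas2, at 1472 to 1490 in wild-type controls, 885 to 1405 in wild-type mice on DEHP, 1433 to 1911 in null controls and 1496 to 1869 in nulls on DEHP, and its part was not tested. Stellate cell and fibroblast markers (8 of 8 measured) summed to 2217 to 2621 over the 8 wild-type animals and to 2657 to 4031 over the 7 nulls. Dcn was the brightest of them, with group means of 1317 to 1798. All 8 lay above 0 in nulls against wild-type mice on either treatment, with median log2 differences of 0.33 on corn oil and 0.46 under DEHP. None passed on corn oil and 3 under DEHP, and 1 fell with DEHP in wild-type mice (limma). Their part was not tested either. In whole liver, fewer cells of a type and less RNA per cell cannot be told apart.

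Upstream sequence is shown first for the genes that rose with DEHP in wild-type liver, because nuclear genes for mitochondrial proteins are known for sharing the binding motifs of NRF1, of ETS factors such as GABPA, and of YY1. Promoter windows of 250 bases before to 50 bases after the start were taken from RefSeq (GRCm38.p6), which matched 68 of the 77 members in 74 windows. The 250 bases before the start follow for the risen genes in which a searched motif lay there, with the motif in capitals.
Mrps18a (chr17:46110754-46111003, plus strand): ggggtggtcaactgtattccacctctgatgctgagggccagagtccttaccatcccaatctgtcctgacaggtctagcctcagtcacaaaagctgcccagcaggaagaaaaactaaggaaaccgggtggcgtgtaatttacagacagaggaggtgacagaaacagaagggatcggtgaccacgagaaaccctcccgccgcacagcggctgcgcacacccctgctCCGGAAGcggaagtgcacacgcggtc
Mrps18c (chr5:100798509-100798758, plus strand): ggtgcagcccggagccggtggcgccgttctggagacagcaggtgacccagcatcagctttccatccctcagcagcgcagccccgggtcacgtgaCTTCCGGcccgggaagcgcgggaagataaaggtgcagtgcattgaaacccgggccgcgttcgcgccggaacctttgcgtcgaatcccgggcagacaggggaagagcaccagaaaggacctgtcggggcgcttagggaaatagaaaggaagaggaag
Mrps11 (chr7:78782881-78783130, plus strand): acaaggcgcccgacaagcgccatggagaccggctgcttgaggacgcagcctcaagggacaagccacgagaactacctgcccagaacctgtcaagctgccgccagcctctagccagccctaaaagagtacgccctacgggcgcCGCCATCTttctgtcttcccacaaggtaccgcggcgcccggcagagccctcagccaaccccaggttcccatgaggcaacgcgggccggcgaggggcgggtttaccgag

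The capitals in Mrps18a mark the ETS core CCGGAAG, which begins 26 bases before the start, and those in Mrps18c mark the same core read on the other strand, beginning 156 bases before it. In Mrps11 they mark the YY1 core AGATGGCG read on the other strand, beginning 108 bases before the start. The window of Mrps18a also held a YY1 core that ended past the start. That core is not marked above, and the counts below include it. Over all member windows, searched on both strands, 33.8% held the ETS core, against 8.86% of all 32851 windows. The NRF1 core GCGCATGC was in 10.8% of member windows and 2.71% of all, and the YY1 core was in 10.8% and 1.95%. A direct repeat of AGGTCA spaced by 1 base, the form PPARα binds with its partner RXR, was in none of the 74 member windows and in 0.0396% of all windows. Member windows were also richer in G and C, with a median of 58.5% against 52.7%. These are matches of letters and show neither a bound site nor the use of one. Of the other risen genes, Mrpl41, Mrpl45 and Mrpl44 had a window with none of these motifs, and Mrpl54 and Mrpl15 had no window. The share of risen genes with a motif was thus 3 of the 6 with a window, where 35 of all 68 matched members had one. Under DEHP, 10 of 25 genes with the ETS core and 23 of 43 without it were lower in nulls than in wild-type mice, with median log2 differences of -0.21 and -0.26. For the YY1 core the same counts were 6 of 8 with it and 27 of 60 without it (medians -0.39 and -0.23), and for the NRF1 core 3 of 8 and 30 of 60 (-0.26 and -0.25). Risen in wild-type mice were 2 of 25 genes with the ETS core, 2 of 8 with the YY1 core and none of 8 with the NRF1 core, against 4 of 43, 4 of 60 and 6 of 60 without. These differences between genes with and without a motif were not tested.

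The members as a whole separated the wild-type mice given DEHP from all other animals. Each animal was described by the median, over the 77 genes, of the deviation from the mean of all 15 arrays on the log2 scale. In the wild-type mice on DEHP this median was 0.14, 0.060, 0.15 and 0.18 (animals 56, 57, 58 and 59). Wild-type controls lay between -0.008 and 0.031, so the treated and untreated wild-type animals did not overlap. Null controls were more scattered, at -0.014, -0.14, -0.061 and 0.031 (animals KO_ctr_115 to KO_ctr_118), and overlapped both the wild-type controls and the nulls on DEHP. Nulls on DEHP were at -0.076, -0.16 and -0.11 (animals KO_DEHP 1150_121, 1150_122 and 1150_123), all below every wild-type animal. The pooled SD of the animal medians within groups was 0.052.

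Large and small subunit genes moved side by side in every animal. The median of the large subunit genes minus that of the small subunit genes ranged from -0.049 to 0.045 over the 15 animals and took both signs in every group. Within groups the animal medians had a pooled SD of 0.048 for the large subunit and 0.063 for the small. The gap is a difference within an animal, which these SDs between animals do not measure, and it was not tested.

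**Figure D1:**
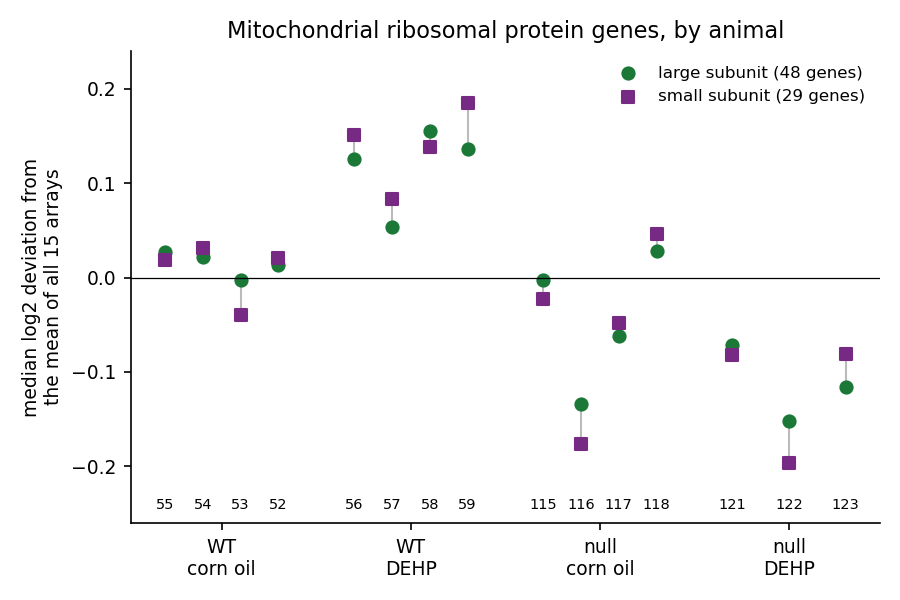
Median log2 deviation of large subunit genes (circles, 48 genes) and small subunit genes (squares, 29 genes) from the mean of all 15 arrays, for each animal in the 4 groups, with animal numbers along the bottom. Both subunits are highest in the 4 wild-type mice on DEHP, and in every animal the paired symbols lie within 0.049 of each other.

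In wild-type liver, 8 of the 77 genes rose with DEHP and none fell (limma, adjusted p under 0.05), a share of 10.4% where 2.29% of all genes rose and 1.57% fell. The rises were small, from 1.18-fold to 1.29-fold. They came from 5 of 48 large subunit symbols (Mrpl54, Mrpl41, Mrpl45, Mrpl15 and Mrpl44) and 3 of 29 small subunit symbols (Mrps11, Mrps18a and Mrps18c). The movement was wider than the calls: 68 of 77 members lay above 0, against 45% of all genes, and 28 were higher and 1 lower at an unadjusted p under 0.05 (7.87% and 8.88% of all genes). The median log2 difference was 0.13 over the members, 0.13 for each subunit, and -0.015 over all genes. In 27 members all 4 treated animals lay above all 4 controls, as did 6.1% of all genes.

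Mrpl54, a large subunit protein found only in mitochondrial ribosomes, had the smallest adjusted p. Its log2 intensity was 7.82, 7.78, 7.76 and 7.61 in wild-type controls and 8.06, 8.07, 8.14 and 8.16 in wild-type mice on DEHP. It was 7.89, 7.86, 7.90 and 7.75 in null controls and 7.86, 7.91 and 7.75 in nulls on DEHP. The treated wild-type animals stood above the other 11, and both null groups covered the same range. The wild-type difference was 0.37 ± 0.06 (log2, SE), or 1.29-fold (limma adjusted p = 0.00325), and the null difference was -0.01 ± 0.07 (adjusted p = 0.982). The difference between those effects, 0.38 ± 0.09, missed the threshold (adjusted p = 0.0652).

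Mrpl41, also found only in mitochondrial ribosomes and located in the large subunit, measured 8.78, 8.93, 8.63 and 8.70 in wild-type controls and 9.09, 9.10, 9.01 and 9.22 on DEHP. In the nulls it measured 8.67, 8.46, 8.52 and 8.75 on corn oil and 8.55, 8.34 and 8.39 on DEHP. Wild-type treated animals were above all others, and the null groups overlapped. The rise in wild-type mice was 0.34 ± 0.08 (log2, SE; limma adjusted p = 0.0267). A dimmer probe set of the same gene gave 0.17, and with the mean of both the difference was 0.26 (adjusted p = 0.0734), so the call rests on the choice of probe set.

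Mrps18a carries a small subunit symbol but sits in the large subunit of the mammalian mitochondrial ribosome, and it is 1 of 3 relatives of the bacterial protein S18. Its values were 8.87, 8.86, 8.81 and 8.88 in wild-type controls and 9.12, 8.97, 9.24 and 9.36 on DEHP, with no overlap. Null controls were at 8.88, 8.72, 8.96 and 8.97 and nulls on DEHP at 8.73, 8.63 and 8.64, where the ranges met. The wild-type difference was 0.32 ± 0.08 (log2, SE; limma adjusted p = 0.0340) and the null difference -0.22 ± 0.08 (adjusted p = 0.292). Its relative Mrps18c, in the small subunit, rose by 0.24 ± 0.06 in wild-type mice (adjusted p = 0.0383) and differed by 0.01 ± 0.07 in nulls, while the third relative, Mrps18b, differed by 0.13 ± 0.06 in wild-type mice (adjusted p = 0.318).

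Mrps11, counterpart of a bacterial protein of the small subunit platform, was at 6.62, 6.66, 6.48 and 6.67 in wild-type controls and 6.94, 6.88, 6.89 and 6.81 on DEHP, a rise of 0.27 ± 0.07 (log2, SE; limma adjusted p = 0.0294). Nulls ranged from 6.39 to 6.54 on corn oil and from 6.41 to 6.61 on DEHP, so their groups overlapped. Mrpl45, which anchors the ribosome to the inner membrane, rose by 0.28 ± 0.07 (adjusted p = 0.0395). Mrpl15, a conserved large subunit protein, rose by 0.29 ± 0.08 (adjusted p = 0.0466), and Mrpl44, which carries a ribonuclease III-like fold, by 0.28 ± 0.07 (adjusted p = 0.0494). In the nulls these last 3 genes differed by -0.01, 0.04 and -0.00 on the same scale.

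**Figure D2:**
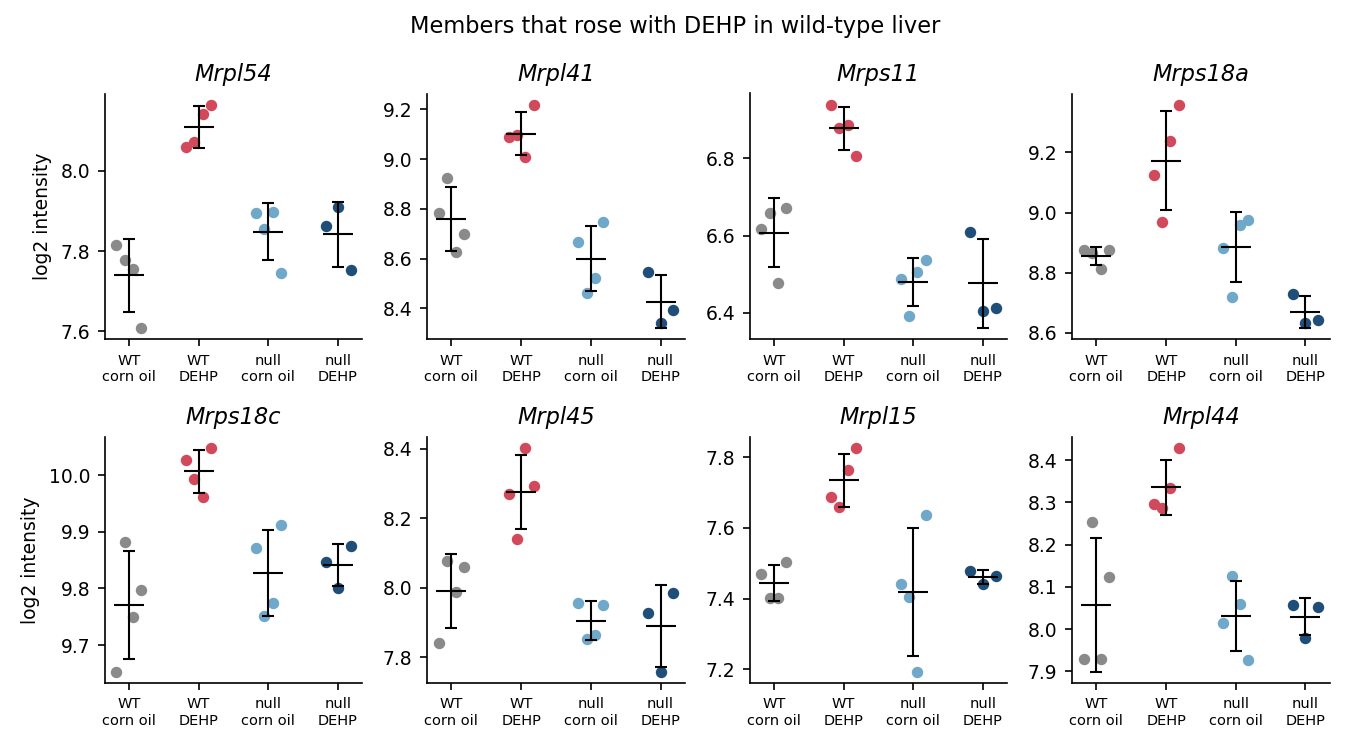
Log2 intensity of the 8 genes that rose with DEHP in wild-type liver, 1 point per animal in each of the 4 groups, with the group mean and SD as a bar (each panel has its own axis range). In all 8 panels the 4 wild-type mice on DEHP lie above the 4 wild-type controls and above every null on DEHP.

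The number of risen genes depended on single animals. It was 1 without wild-type control 53, wild-type control 55 or treated animal 56, 2 without control 52 or treated animal 58 or 59, 3 without treated animal 57 and 4 without control 54. The median over the members stayed between 0.11 and 0.15 when any of the 15 animals was left out. Mrpl54 was the 1 gene that kept its call in all 15 such fits, with adjusted p from 0.0029 to 0.0122. Mrpl41 and Mrps11 lost theirs in 6, Mrps18a, Mrps18c and Mrpl45 in 7, and Mrpl15 and Mrpl44 in 13, with adjusted p up to 0.160.

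Several members with well-known roles did not pass the test in wild-type liver. Mrps36, whose product is now known as a component of the α-ketoglutarate dehydrogenase complex, had the largest difference of any member, 0.44 ± 0.12 (log2, SE; limma adjusted p = 0.0571). Its values were 6.08, 6.35, 6.14 and 6.20 in controls and 6.59, 6.45, 6.56 and 6.94 on DEHP, without overlap. A second Mrps36 probe set gave 0.47. Mrpl12, which binds the mitochondrial RNA polymerase, differed by 0.05 ± 0.08 (adjusted p = 0.822), and Mrps12, at the decoding centre, by 0.17 ± 0.09 (adjusted p = 0.402). Mrpl11, at the base of the stalk that meets the translation factors, differed by 0.15 ± 0.07 (adjusted p = 0.255), and Mrps30, a large subunit protein in spite of its symbol, by 0.13 ± 0.07 (adjusted p = 0.343). Mrpl23, a protein at the exit of the peptide tunnel that was picked out after its values were seen, was the member lower at an unadjusted p under 0.05, at -0.17 ± 0.07 (adjusted p = 0.255).

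In PPARα-null liver, DEHP changed no member past the threshold (limma), while 0.16% of all genes rose and 0.311% fell. At an unadjusted p under 0.05, 3 members were higher and 17 lower (6.46% and 5.83% of all genes). The balance lay on the lower side, with 57 of 77 members below 0 against 45.4% of all genes. The median log2 difference was -0.072 over the members, -0.070 for the large and -0.080 for the small subunit, and 0.014 over all genes. Without null control KO_ctr_118, the control with the highest member median, these medians were -0.037, -0.041 and -0.030. Counts of called members were 2, all lower, when dim genes were left out or null DEHP animal 1150_121 was omitted, and 3, all lower, when the variance was fitted with an intensity trend and robustly.

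The 4 members with the smallest p in the nulls were 3 of the small subunit and 1 of the large. Mrps28, a small subunit protein, measured 8.67, 8.62, 8.60 and 8.69 in null controls and 8.42, 7.87 and 8.23 on DEHP. Its difference was -0.47 ± 0.11 (log2, SE; limma adjusted p = 0.0621), and the groups did not overlap. Mrps14, a neighbour of the decoding site, measured 8.20, 8.14, 8.22 and 8.34 against 7.74, 7.56 and 7.99, a difference of -0.46 ± 0.11 (adjusted p = 0.0812) without overlap. Mrps9 and Mrpl21, both conserved from bacteria, differed by -0.32 ± 0.08 (adjusted p = 0.0768) and -0.25 ± 0.06 (adjusted p = 0.0902). In wild-type mice the same 4 genes were at 0.12, 0.16, 0.11 and 0.08, all with adjusted p above the threshold.

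The comparisons within wild-type and within null mice share no animal, so their values can be set side by side. In 51 of 77 members (66.2%) the difference was above 0 in wild-type mice and below 0 in nulls, a pattern of 18.9% of all genes. In 17 members it was above 0 in both, in 6 below 0 in both, and in 3 below 0 in wild-type and above 0 in null mice. Across the members the size of one difference did not track the other (Pearson r = -0.03 over 77 genes, as a description, since genes on the same arrays are not independent). Mrpl38 was among those higher in both, at 0.14 ± 0.05 in wild-type and 0.19 ± 0.06 in null mice (limma adjusted p = 0.209 and 0.163).

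**Figure D3:**
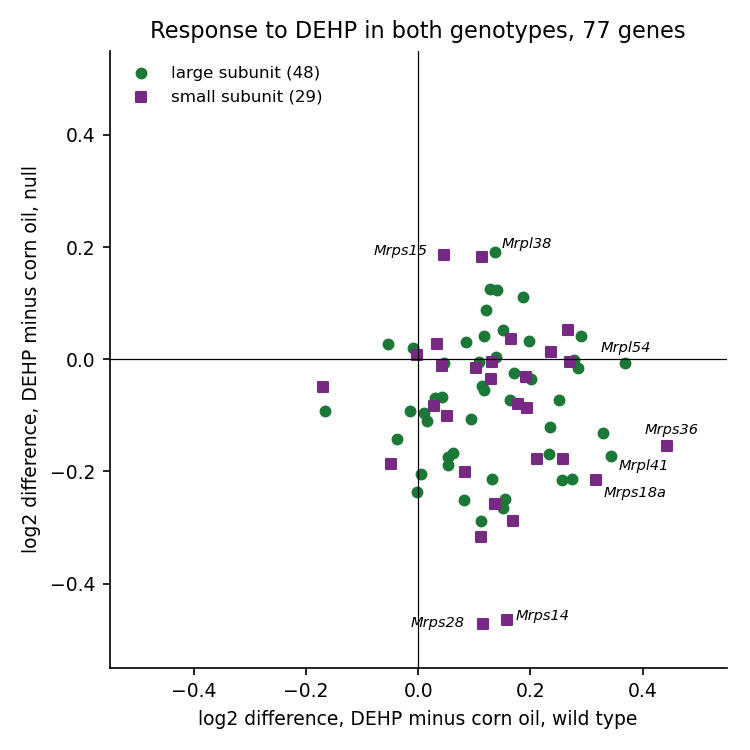
Log2 difference between DEHP and corn oil in wild-type mice (horizontal) against that in PPARα-null mice (vertical) for large subunit (circles) and small subunit (squares) genes. The lower right quadrant holds 51 of the 77 genes, and both subunits spread over the same area.

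Tested directly, the effect of DEHP in wild-type mice minus its effect in nulls was above 0 for 69 of 77 members, against 43.2% of all genes, with a median of 0.21 (large subunit 0.20, small subunit 0.22) where all genes had -0.028. At an unadjusted p under 0.05, 35 members were higher and none lower (6.35% and 7.04% of all genes). After adjustment 1 member passed (limma), where 0.562% of all genes passed in that direction and 0.336% in the other: Mrps18a, at 0.53 ± 0.12 (SE; adjusted p = 0.0407). Mrpl41 was at 0.52 ± 0.12 (adjusted p = 0.0552), Mrpl11 at 0.42 ± 0.10 (adjusted p = 0.0558) and Mrps28 at 0.59 ± 0.14 (adjusted p = 0.0646). The count moved with the animals and settings. It was 7 without null DEHP animal 1150_121, 4 without null control KO_ctr_116, 2 without wild-type DEHP animal 57, 1 without wild-type control 54, wild-type DEHP animal 58 or null DEHP animal 1150_123, and 0 without any of the other 9. Mrps18a lost its call in 12 of the 15 fits.

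Between the genotypes on corn oil alone, no member passed the test (limma), where 0.642% of all genes were higher and 0.547% lower in nulls. At an unadjusted p under 0.05, none was higher and 7 were lower (6.13% and 5.82% of all genes). Of the members, 64 lay below 0, against 53.2% of all genes, with a median of -0.071 (large subunit -0.074, small subunit -0.071; all genes -0.008). Without null control KO_ctr_116, the control with the lowest member median, these were -0.038, -0.044 and -0.029. The count was 0 under every other setting and with each animal left out. Mrpl14, a conserved protein at the face between the subunits, had the smallest p, at 9.16, 9.06, 8.96 and 9.04 in wild-type and 8.75, 8.58, 8.61 and 8.87 in null controls. These groups did not overlap and differed by -0.35 ± 0.11 (adjusted p = 0.147). Mrpl38, Mrpl34 and Mrpl28, the next 3, differed by -0.14 ± 0.05, -0.22 ± 0.09 and -0.19 ± 0.07 (adjusted p = 0.274, 0.283 and 0.305).

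With both genotypes on DEHP, 38 of the 77 members (49.4%) were lower in nulls than in wild-type mice and none was higher (limma), where 5.61% of all genes were lower and 5.09% higher. The lower genes were 24 of 48 large subunit symbols and 14 of 29 small subunit symbols, with median differences of -0.26 and -0.25 (all members -0.26, all genes 0.024). In 55 members all 3 nulls lay below all 4 wild-type animals, as in 9.51% of all genes, and 75 of 77 lay below 0, against 43.2% of all genes. At an unadjusted p under 0.05, 57 were lower and none higher (10.5% and 12.5% of all genes). Mrps15 (0.07) and Mrpl23 (0.05) were the exceptions. When Mrps18a and Mrps30 were moved to the large subunit, where their proteins sit, and Mrps36 was left out, the counts were 26 of 50 and 11 of 26.

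**Figure D4:**
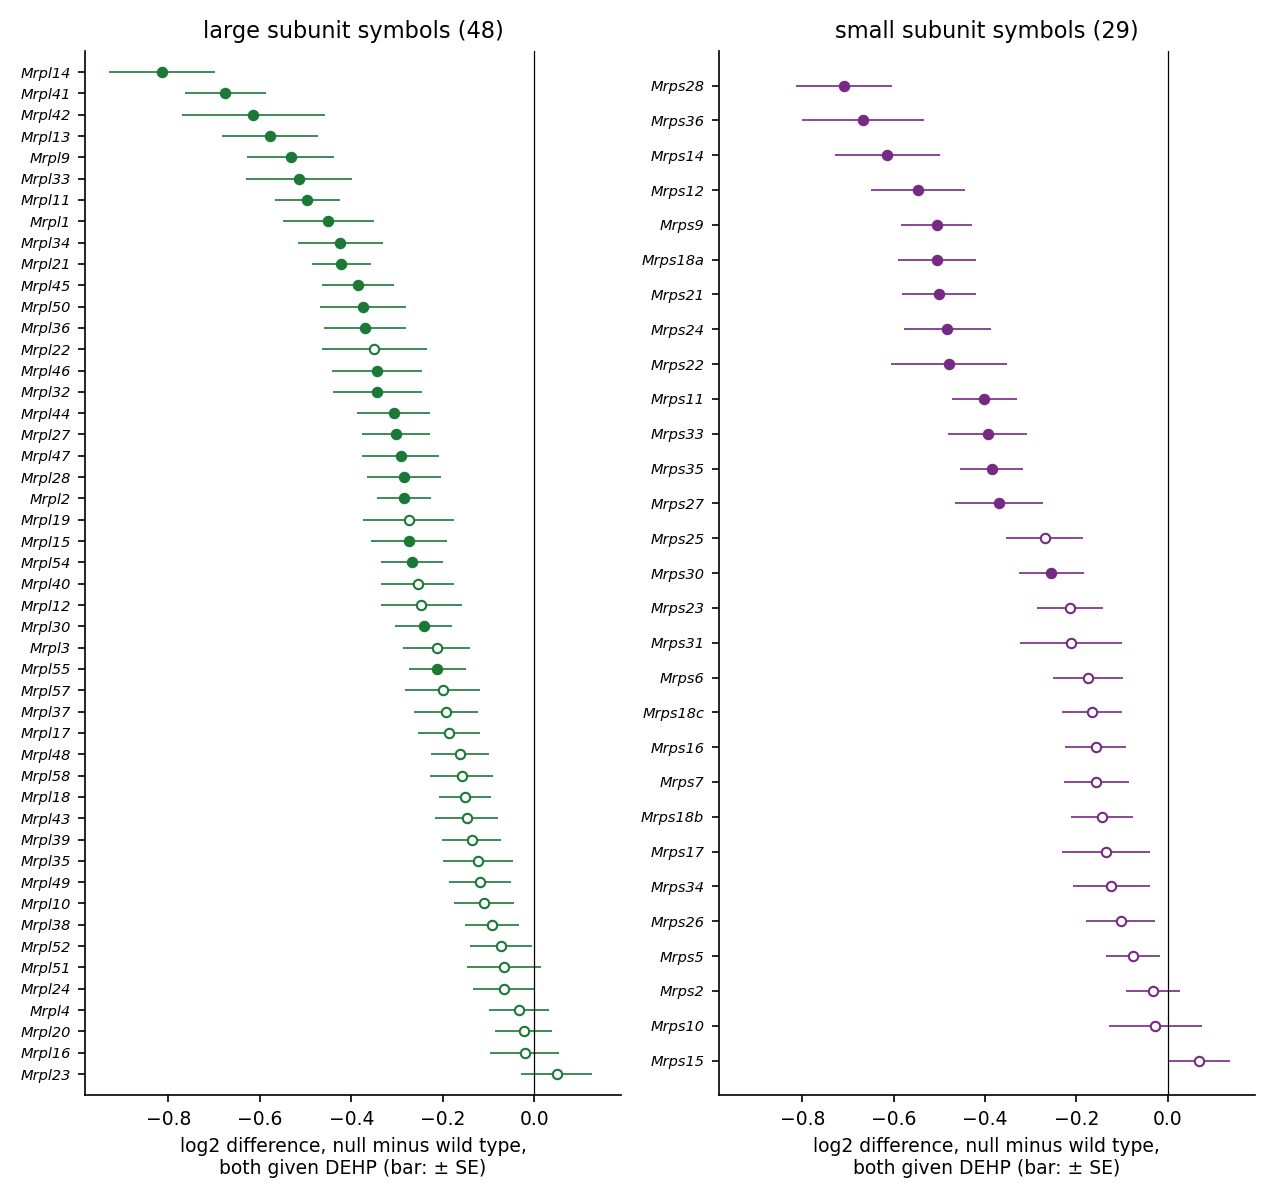
Log2 difference between PPARα-null and wild-type mice, both given DEHP, for each large subunit gene (left) and small subunit gene (right), with its SE as a bar. Filled points passed the limma test (24 large, 14 small), and 75 of the 77 points lie left of 0.

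Mrpl41 had the smallest adjusted p. Its values, given above, ran from 8.34 to 8.55 in nulls and from 9.01 to 9.22 in wild-type mice on DEHP, a difference of -0.68 ± 0.09 (SE), or 0.63-fold (limma adjusted p = 0.000172). With the mean of both probe sets it was -0.49 and still passed. Mrpl14 measured 8.90, 8.24 and 8.58 in nulls and 9.36, 9.34, 9.47 and 9.37 in wild-type mice, the largest difference among the members at -0.81 ± 0.12 (0.57-fold; adjusted p = 0.000348). That gene was at -0.35 without DEHP, as described above.

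Mrpl11 measured 8.83, 8.68 and 8.77 in nulls and 9.32, 9.07, 9.32 and 9.33 in wild-type mice on DEHP. The groups did not overlap, and it was lower in nulls by -0.50 ± 0.07 (log2, SE; limma adjusted p = 0.000375). Mrps28, in which nulls were at 8.42, 7.87 and 8.23 and wild-type mice at 8.94, 8.79, 8.79 and 9.02, was lower by -0.71 ± 0.11 (adjusted p = 0.000500). Wild-type mice on DEHP overlapped wild-type controls for both genes. For Mrpl41, Mrps18a and Mrps11, by contrast, the wild-type groups did not overlap while the null groups did.

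The next members by adjusted p were Mrps9 (-0.51 ± 0.08), Mrpl21 (-0.42 ± 0.06), Mrps21 (-0.50 ± 0.08), Mrps18a (-0.51 ± 0.08), Mrps11 (-0.40 ± 0.07) and Mrpl9 (-0.53 ± 0.10), with limma adjusted p between 0.000613 and 0.00200. Mrps21 and Mrpl9 are conserved from bacteria, in the small and large subunit. All 10 of the named genes kept their calls when any animal was left out and under each other setting. Among members of known role, Mrps12 was lower by -0.55 ± 0.10 (adjusted p = 0.00272), Mrps36 by -0.67 ± 0.13 (adjusted p = 0.00411) and Mrps30 by -0.25 ± 0.07 (adjusted p = 0.0323, lost in 5 of 15 fits and up to 0.133 without null DEHP animal 1150_122). Mrpl12, Mrps18b and Mrps18c did not pass, at -0.25, -0.14 and -0.17 (adjusted p = 0.0947, 0.215 and 0.126). Mrpl12 turned on single nulls: it passed at -0.38 (limma adjusted p = 0.00408) without 1150_121 and was at -0.15 (adjusted p = 0.422) without 1150_122. Mrps18b was at -0.09 (adjusted p = 0.453) without wild-type DEHP animal 58.

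The count of 38 was 20 without null DEHP animal 1150_122, the animal with the lowest member median, and between 26 and 40 without any other. Of the 8 genes that rose with DEHP in wild-type mice, 7 were among the 38, all except Mrps18c. Both comparisons use the same 4 treated wild-type animals, so this overlap is not independent.

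Around the group mean, the members also varied together from animal to animal. After group means were removed, the mean pairwise correlation over 15 arrays was 0.27 among members, 0.26 within the large subunit, 0.28 within the small and 0.28 between subunits, against 0.007 among all genes. Oxidative phosphorylation subunits gave 0.32 among themselves and 0.26 with the members, while cytosolic ribosomal proteins gave 0.27 and 0.16. These are descriptions, since all genes of an array share its RNA and hybridisation. Mrps33 had the highest mean correlation with the other members (0.47), and Mrpl54, which had the smallest p in wild-type mice, had the lowest (-0.11). The genes most like Mrpl54 over the 15 arrays were Fzr1 (r = 0.89), Rhoh (0.89), Nid2 (0.87), Prok2 (0.87) and Dusp7 (0.86), none of them a member. They were picked as the highest r among all genes, and no r was tested against chance. The closest members were Mrpl17 (0.59) and Mrpl20 (0.47).

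Other parts of the mitochondrial translation apparatus held some calls in the same directions, but their medians did not all follow the members. With DEHP in wild-type mice the medians were 0.13 (4 ribosome proteins with other symbols), 0.061 (13 translation factors) and 0.0027 (22 assembly factors, 11 above and 11 below 0). Within nulls these medians were 0.052, 0.011 and -0.052. In nulls against wild-type mice under DEHP they were -0.14, -0.11 and -0.16. Over all genes, 2.29% rose with DEHP in wild-type mice, 0.311% fell with it in nulls, and 5.61% were lower in nulls under DEHP. Of 4 ribosome proteins with other symbols, Ptcd3 rose with DEHP in wild-type mice (0.31 ± 0.08; limma adjusted p = 0.0389), and Chchd1 was lower in nulls under DEHP (-0.92 ± 0.14; adjusted p = 0.000753). Chchd1 kept its call in all 15 fits with an animal left out, and Ptcd3 lost its call without any of the 4 wild-type controls or without treated animal 57, 58 or 59. Of 13 translation factors, the elongation factor Tufm rose (0.21 ± 0.05; adjusted p = 0.0254), and Tufm, its exchange factor Tsfm and the release factor Mtrf1 were lower in nulls under DEHP (-0.19, -0.28 and -0.49). The rise of Tufm was lost without any of the 4 wild-type controls or without treated animal 58 or 59. The 3 factors lower in nulls were 0 without wild-type DEHP animal 59 or null DEHP animal 1150_122, and 1 without 58, 1150_121 or 1150_123. Of 22 assembly and ribosomal RNA maturation factors, the GTPase Noa1 rose (0.39 ± 0.08; adjusted p = 0.00916) and 7 were lower in nulls under DEHP, among them Malsu1, a large subunit assembly factor, at -0.69. The 7 were 3 without null DEHP animal 1150_122 and 4 without wild-type DEHP animal 58 or 59. Malsu1 also fell with DEHP within the nulls, at -0.48 ± 0.10 (adjusted p = 0.0405), but no assembly factor was called lower within nulls in 11 of the 15 fits with an animal left out.

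None of 19 mitochondrial aminoacyl-tRNA synthetases, which charge tRNAs for this ribosome, passed with DEHP in wild-type mice (limma), adjusted or at an unadjusted p under 0.05. Their differences still lay above 0 in 17 of 19, against 45% of all genes, with a median of 0.066. Without wild-type DEHP animal 56, 1 was called higher with DEHP in wild-type mice. In nulls against wild-type mice under DEHP all 19 lay below 0, against 43.2% of all genes. Of these, 1 was called lower (Rars2, -0.38), a share of 5.26% where 5.61% of all genes were lower. The count of 1 lower fell to 0 without wild-type DEHP animal 57 or 59 or any of the 3 nulls on DEHP. Of 16 genes of mitochondrial DNA transcription and RNA upkeep, Top1mt (0.31) and Hsd17b10 (0.35) rose in wild-type mice, and 4 were lower in nulls under DEHP, including the transcription factor Tfam at -0.32. Without null control KO_ctr_118 or null DEHP animal 1150_123 the 4 were 6, and without null DEHP animal 1150_122 they were 3. Hsd17b10, a subunit of mitochondrial ribonuclease P, also differed in its DEHP effect between genotypes (0.47 ± 0.10; limma adjusted p = 0.0336). In 11 of the 15 fits with an animal left out, no gene of this list was called for that difference. None of 9 regulators of mitochondrial biogenesis, such as Ppargc1a and Nrf1, passed the test in any of the comparisons (limma). At an unadjusted p under 0.05, 2 were lower with DEHP in wild-type mice, 3 were higher in nulls under DEHP, where their median was 0.14, and 1 was higher in nulls on corn oil. With single animals left out, 1 regulator was called lower with DEHP in wild-type mice in 4 of 15 fits.

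Nuclear genes for oxidative phosphorylation, whose partners the mitochondrial ribosome makes, were counted in the same way. The shares of all genes were 2.29% risen in wild-type mice and 0.311% fallen in nulls. Under DEHP, 5.61% of all genes were lower in nulls and 5.09% higher. Of 81 subunits, 3 rose with DEHP in wild-type mice (3.7%, median 0.086), led by Cox6b2 at 1.54 ± 0.11. Cox6b2 was already lower in nulls than in wild-type mice on corn oil, at -1.55 ± 0.11 (limma adjusted p = 1.45e-06). It was the 1 subunit called there (1.23%, against 0.547% of all genes lower). In nulls 7 fell (8.64%, median -0.16), and under DEHP 46 were lower in nulls (56.8%, median -0.31) and 1 higher. Cytosolic ribosomal proteins followed a similar course, with 2 of 63 risen in wild-type mice (3.17%), 7 fallen in nulls (11.1%, median -0.14) and 30 lower in nulls under DEHP (47.6%, median -0.26). Without null DEHP animal 1150_122 the last counts were 30 of 81 and 19 of 63. The shares risen in wild-type mice, 3.7% and 3.17%, lay near the 2.29% of all genes. These rises came to 1 in each list without wild-type control 52, 53 or 55 or treated animal 56, 58 or 59. The falls within nulls ran from 0 to 13 and from 0 to 15 with single animals left out, with the highest counts without 1150_121. Without 1150_122 both were 0, and without KO_ctr_117, KO_ctr_118 or 1150_123 they were 0 and 1. Above 0 with DEHP in wild-type mice were 63 of 81 and 56 of 63, against 45% of all genes. Their medians were 0.086 and 0.067 (members 0.13). The effect of DEHP in wild-type mice minus that in nulls had medians of 0.27 and 0.22 (members 0.21, all genes -0.028). The low values in nulls under DEHP were thus shared with other nuclear-encoded ribosomal and respiratory genes. So were the lean above 0 in wild-type mice and the difference between genotypes in the DEHP effect. No test set the members apart from these genes.

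**Figure D5:**
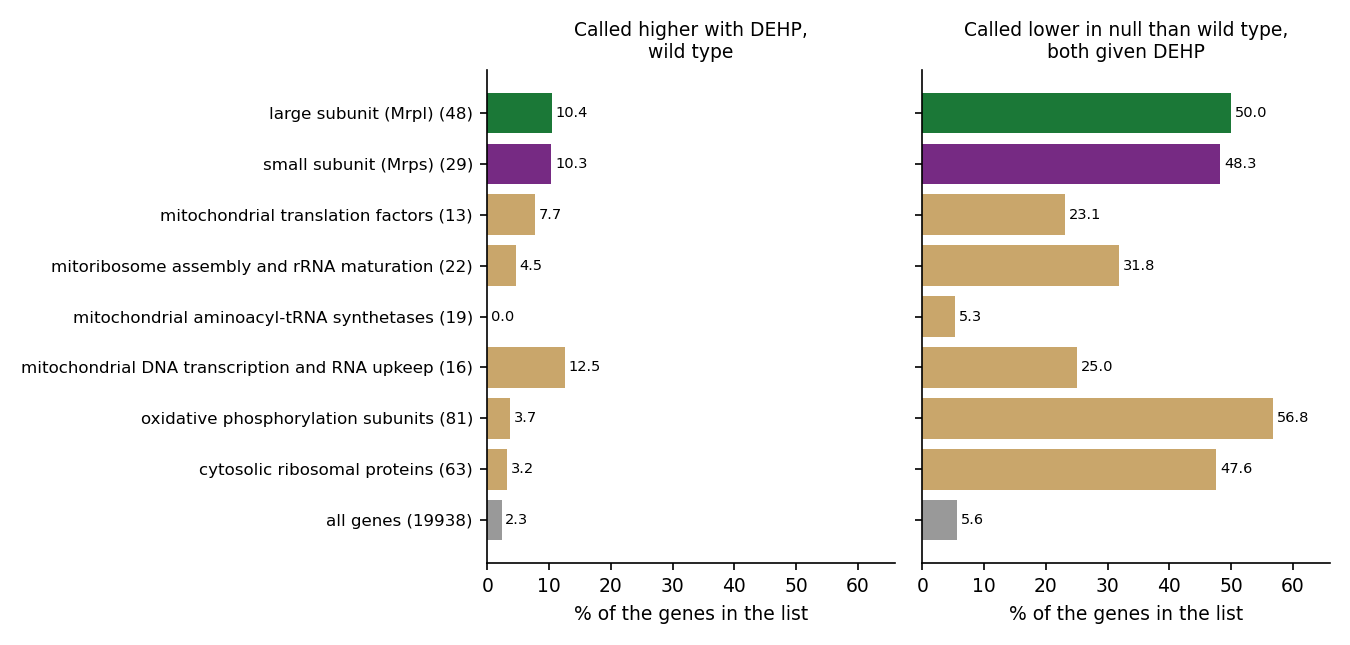
Percent of genes called higher with DEHP in wild-type mice (left) and called lower in PPARα-null than wild-type mice under DEHP (right), for the 2 subunits, 6 related gene lists and all genes, with list sizes in parentheses. In the right panel the subunits (50% and 48.3%) lie near cytosolic ribosomal proteins (47.6%) and oxidative phosphorylation subunits (56.8%), and all genes at 5.6%.

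Of the members, 8 had a second probe set, which allowed a check within the array. The sign of the wild-type DEHP difference was the same in 6 of the 8 genes, that of the null DEHP difference in 8, and that of the genotype difference under DEHP in 6. Sizes could differ: Mrpl27 gave -0.00 and 0.20 in wild-type mice on its brighter and dimmer probe set, and -0.30 and -0.43 between genotypes under DEHP. RefSeq lists 6 pseudogenes under these symbols, and which copy each probe set reads was not determined.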

How the data were processed

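Liver RNA of 15 mice was labelled with biotin after whole-transcript cDNA amplification (Affymetrix), per the labels' protocols. The values used were the deposited probe set intensities on a linear scale, from 1.77 to 23337 over 35494 probe sets. The authors processed them before deposit (background correction and normalization not given in the sources used here). No scanner background was used. The number of arrays in each group limits the precision.

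Probe sets were named through the platform annotation: 21789 had 1 symbol, 1621 several and 12084 none. The members had 85 probe sets, 8 genes with 2, and 1 probe set that shared its symbols with another gene was left out. Intensities were converted to log2, and limma 3.58.1 (R 4.3.3) fitted 1 mean per group to all 15 arrays, with Benjamini-Hochberg adjustment over 19938 genes and a threshold of 0.05. The labels give no batch. The script was tested on simulated data with independent noise for each gene. The seeded changes were larger than the rises of members in wild-type mice, so that test does not cover rises of their size. Named genes were up to 10 called members per comparison and direction by adjusted p, filled up to 4 by smallest p where fewer were called, plus 8 members of textbook role; related lists gave up to 4 called genes. The members, lists and motifs were chosen with earlier results of these data known. The alternatives were quantile normalization, array median centring, the mean of probe sets, leaving out the dimmest 25% of genes, an intensity trend with robust variance, only the compared groups, subunits by place, and leaving out each animal. Python 3.11.15 with pandas 2.3.3 and matplotlib 3.10.9 made the tables and plots.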

Additional observations from a re-analysis of the deposited data

Results flagged for a closer look

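The log2 intensities of 24 named members and the animal medians of all members and of each subunit were looked at in the 3 groups of 4 animals. Of these 81 sets of values, 4 held a value far from the others of its group, where chance alone marks about 1 in 20. In wild-type control 53, Mrps28 was at 8.61 (log2 intensity) against 8.80 to 8.83 in the other 3 controls, and Mrpl28 was at 8.61 against 8.65 to 8.66. In wild-type DEHP animal 57, Mrpl11 was at 9.07 against 9.32 to 9.33 in the other 3. In wild-type DEHP animal 58, Mrps18b was at 10.16 against 9.93 to 9.94. The DEHP effect on Mrps18a differed between the genotypes by 0.53 (log2; limma interaction, adjusted p = 0.0407), the 1 member for which that difference passed the test.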

How the results depend on the processing

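No paired analysis was possible because the 4 groups share no animal or replicate numbers. The median over the members kept its sign in each of the 5 comparisons under every setting and with every animal left out. Numbers of called members were 2 with quantile normalization, 0 with array median centring, 7 without dim genes and 8 with an intensity trend and robust variance for the interaction (1 in the main analysis), and 2 without dim genes and 3 with the trend for DEHP in nulls (0). For nulls against wild-type mice under DEHP, median centring gave medians of -0.31 for all members and -0.31 for the large subunit. With animals left out, called members ran from 1 to 9 (DEHP, wild-type), 0 to 2 (DEHP, null), 0 to 7 (interaction) and 20 to 40 (null against wild-type under DEHP). Signs turned for differences near 0 that never passed the test. Quantile normalization gave 0.014 for Mrps30 and -0.018 for Mrps18c (DEHP, null) and 0.0040 for Mrpl12 (genotypes on corn oil). With animals left out, Mrps30 ran from -0.046 to 0.037 and Mrps18c from -0.011 to 0.042 (DEHP, null), and on corn oil Mrpl12 ran from -0.025 to 0.020, Mrps18b from -0.0082 to 0.044 and Mrps18a from -0.0030 to 0.082. In wild-type mice on DEHP, Mrps18c and Mrpl44 lost their calls with quantile normalization, and Mrps18a, Mrps18c, Mrpl45 and Mrpl44 with only the 2 groups compared (adjusted p = 0.0646, 0.0711, 0.0745 and 0.101). The causes were not tested. With 3 or 4 arrays a group, the median SE of a member's log2 difference was 0.072 to 0.11 over the comparisons, which limits what could pass.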
